A study of Mus musculus with 6 samples.

Results

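The genes of lysosomal hydrolases and of lysosomal acidification were examined in tumor-associated macrophages (TAMs) of WT and C5aR-/- mice. The group holds 36 genes of the 56980 in the deposited table, chosen by symbol, and each matched 1 Ensembl gene ID. It consists of 12 genes of cathepsins and legumain, 7 of lipid and glycan hydrolases, 2 of cofactor precursors, 5 of membrane proteins, 7 of the proton pump V-ATPase and 3 of transcription factors. Expression is given in TPM, a unit scaled for transcript length, so that levels of different genes can be compared.

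Cells of the mouse ovarian cancer line ID8 were injected intraperitoneally into female WT C57BL/6 mice or into C5aR-/- mice on the same background, obtained at an age of 6 to 8 weeks. Tumors in the abdominal cavity were taken 2 months later, without any other treatment named, and live CD45+CD11b+Ly6G-F4/80+ cells were sorted. Poly(A) RNA was sequenced in 3 libraries per genotype, called WT TAM 1 to 3 and C5aR-/- TAM 1 to 3 here. The question was how the loss of C5aR, the receptor of the complement fragment C5a, alters gene expression of TAMs. The knockout affects every host cell type and not only macrophages, whereas the same ID8 line was injected into both genotypes. The labels do not say whether a library came from 1 mouse or from pooled mice, so the p-values measure the spread between libraries. The fit relative to macrophage markers is an exception, described with its values below. The number of mice that the legends of the study give for this experiment differs from the number of libraries deposited. TPM keeps no depth, so the depth of the libraries is unknown, and between 14393 and 15015 genes reached 1 TPM in a library.

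Lysosomes break down proteins, lipids, glycans and nucleic acids that arrive by endocytosis, phagocytosis and autophagy. Their hydrolases work at acidic pH, which the V-ATPase sets by pumping protons into the lumen, and many are made as precursors that other lysosomal proteases cleave. The transcription factors TFEB, TFE3 and MITF bind a short DNA element in the promoters of many lysosomal genes. Macrophages are rich in lysosomes, in which engulfed cells and antigens are degraded.

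C5ar1, the gene deleted in the knockout (chr7:16246743-16259540, minus strand, build GRCm38), was at 86.5, 37.3 and 16.2 TPM in WT and at 0.38, 0.11 and 0.05 in C5aR-/- TAMs. The libraries of the genotypes were far apart, and all 6 matched their labels. Its log2 difference was -5.04 (SE 0.56, lower in 3 of 3 C5aR-/- libraries, limma adjusted p = 0.0666, from 7.04e-06 to 0.179 over 10 alternatives). Without C5aR-/- TAM 1 it was -5.16, lower in the 2 libraries left, and passed the adjusted threshold given below (limma adjusted p = 0.0220). All log2 differences are those of C5aR-/- minus WT TAMs after log2(TPM + 1), where the 1 that is added makes differences between low values smaller.

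The sorted cells carried macrophage markers in all libraries, at levels that varied within each genotype. The 12 genes of the macrophage marker list summed to 8996, 3704 and 2598 TPM in WT TAM 1 to 3 and to 8893, 5078 and 2597 in C5aR-/- TAM 1 to 3. Lyz2 was the most abundant of them, none was at 0, and limma called 0 of the 12 at either threshold. Fcgr1 alone had no overlap between the genotypes, at 13.6, 8.60 and 11.3 TPM in WT and 26.6, 18.2 and 16.9 in C5aR-/- TAMs. Over all tested genes, 8.84% were higher with no overlap. All 12 were highest in WT TAM 1 among the WT libraries and in C5aR-/- TAM 1 among the C5aR-/- libraries. In sorted bulk RNA, fewer macrophages and less of these RNAs per cell cannot be told apart.

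The 36 lysosomal genes summed to 7011, 5144 and 4685 TPM in WT TAMs and to 11402, 7280 and 5141 in C5aR-/- TAMs. The sum was highest in library 1 of each genotype, as the macrophage markers were, and C5aR-/- TAM 3 was at the level of WT TAM 2, so the genotypes overlapped. These sums were 0.701%, 0.514% and 0.468% of all TPM in WT TAMs, and 1.14%, 0.728% and 0.514% in C5aR-/- TAMs. Psap was the most abundant member, and 16 of the 36 had a mean TPM of at least 100. The same number lay above 90% of the tested genes in mean TPM, and 4 members, Ctse, Ctsk, Mitf and Atp6v0d2, had a mean TPM under 10.

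Of the 36 members, 35 reached 1 TPM in 3 or more libraries and were tested with the other genes, 14776 in all. At the adjusted threshold (BH-adjusted p below 0.05 and 2-fold or more), limma called 0 of the 35, as it called 0 genes (0%) over the whole table. Without C5aR-/- TAM 1 it called 0 members and 349 genes of the whole table, and 1 and 3 genes without C5aR-/- TAM 2 and 3. At the unadjusted threshold (limma p below 0.05 without adjustment and 2-fold or more), 1 member was higher in C5aR-/- TAMs (2.13% of all tested genes) and 0 were lower (2.84%). Regardless of the fold change, 5 members, Ctss, Lgmn, Lipa, Cd63 and Mcoln1, were higher at an unadjusted p below 0.05 (6.06% of all tested genes) and 0 lower (8.37%). The 3 C5aR-/- libraries lay above all WT libraries for 4 tested members, Lgmn, Lipa, Cd63 and Mcoln1 (8.84% of all tested genes), and below them for 0 (12.5%). With 3 libraries against 3, a two-sided exact permutation test cannot give a p below 0.1. The difference was above 0 for 25 members and below 0 for 10, with a median of 0.21 against -0.05 over all tested genes. Over all tested genes it was above 0 for 6570 and below 0 for 8206, to be read also beside the counts by role below.

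These counts depended on single libraries. The median of the members was -0.06 without C5aR-/- TAM 1, where 16 differences were above 0, and 0.39 without C5aR-/- TAM 3, where 32 were. The median over all tested genes was -0.05 and -0.04 in these 2 cases. Members higher with no overlap numbered 15 without C5aR-/- TAM 3 (12.9% of all tested genes) and 10 without WT TAM 1 (11.6%), and members lower numbered 0 in both (18.0% and 21.6%). There were 4 such higher members in each of the other cases, beside 18.7% of all tested genes without C5aR-/- TAM 1, 11.6% without C5aR-/- TAM 2, 10.9% without WT TAM 2 and 15.5% without WT TAM 3. A member was lower with no overlap without C5aR-/- TAM 1 (Gaa, 23.4% of all tested genes) and without WT TAM 3 (Ctse, 16.1%). With fewer libraries more genes have no overlap, and leaving out a library cannot make separated groups overlap. Of the members with an unadjusted p under 0.05 from limma, 3 were higher without C5aR-/- TAM 1 (9.98% of all tested genes), 4 without C5aR-/- TAM 2 (4.14%), 7 without WT TAM 1 (4.26%), 2 without WT TAM 2 (3.36%) and 2 without WT TAM 3 (5.54%), against 10 without C5aR-/- TAM 3 (5.27%), and 1, Ctse, was lower without WT TAM 3 (5.29%). The number with a fold change of at least 2 as well in either direction was 0 without C5aR-/- TAM 1 (8.44% of all tested genes), 2 without C5aR-/- TAM 2 (4.88%) and 4 without C5aR-/- TAM 3 (4.29%). It was 3 without WT TAM 1 (5.32%), 1 without WT TAM 2 (3.62%) and 2 without WT TAM 3 (4.75%), against 1 with all libraries (4.96%).

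The levels of most members differed between the libraries of a genotype. In C5aR-/- TAM 1, 30 of the 35 tested members lay above all 3 WT libraries, where 29.7% of all tested genes did, the exceptions being Ctse, Ctsf, Lamp2, Gusb and Tfeb, and 0 lay below them (36.3%). In C5aR-/- TAM 2, 17 members lay above all WT libraries (26.6% of all tested genes) and 1, Gaa, lay below them (32.9%). In C5aR-/- TAM 3, only Lgmn, Lipa, Cd63 and Mcoln1 of the tested members lay above all WT libraries (31.9%) and 17 lay below them (38.3%). For 25 members the highest value was in library 1 of both genotypes, as for all 12 macrophage markers, where 12.2% of all tested genes had this pattern. C5aR-/- TAM 1 also had the fewest genes at 1 TPM (14393) and the lowest share of TPM from mitochondrial genes. This share was 9.31%, 7.91% and 6.98% in WT TAMs and 5.60%, 8.23% and 8.78% in C5aR-/- TAMs. The parts of macrophage content and of library quality in these levels were not tested.

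**Figure D1:**
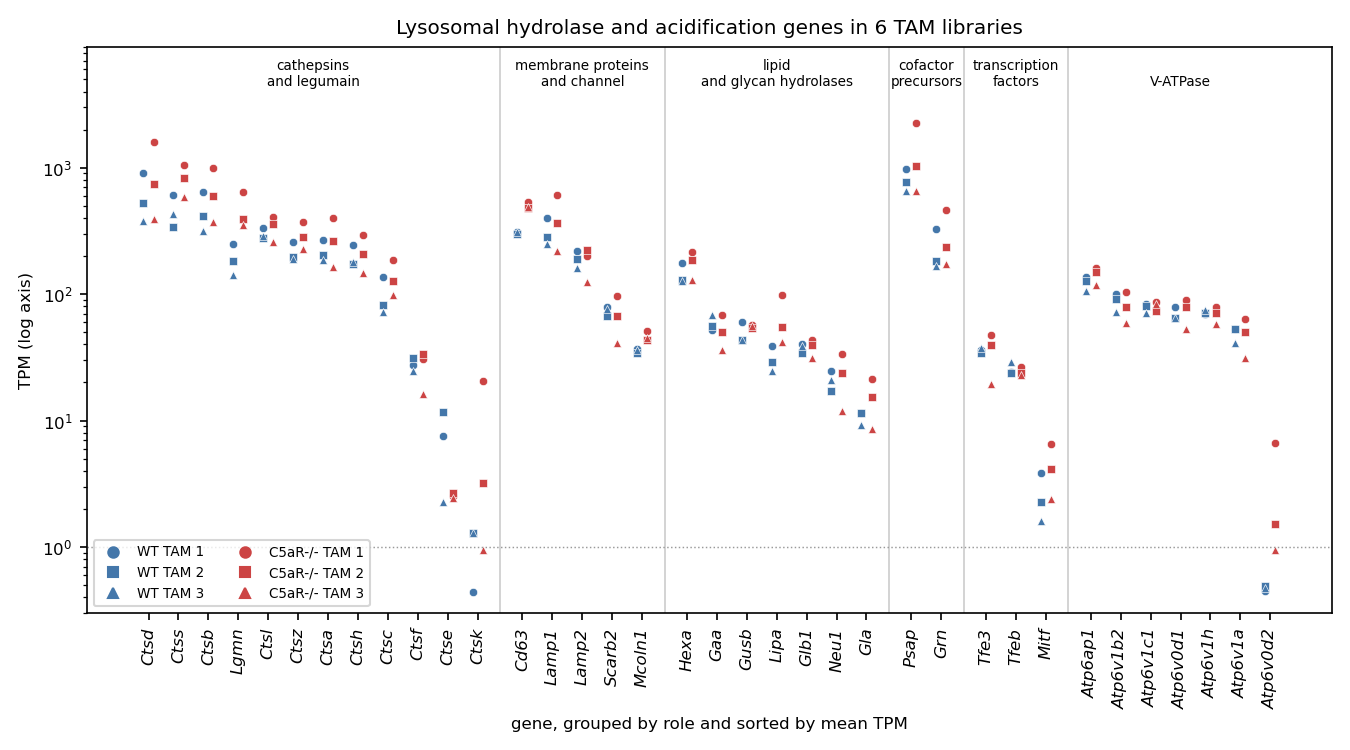
TPM of the 36 lysosomal genes on a log axis, with each point a library (circle, square and triangle for library 1, 2 and 3 of a genotype), WT TAMs in blue and C5aR-/- TAMs in red. Psap was the most abundant member, and Lgmn, Lipa, Cd63, Mcoln1 and Atp6v0d2 had no overlap between the genotypes.

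The 12 genes of cathepsins and legumain encode the proteases of the lysosome, most of them cysteine proteases. Their summed TPM was 3679, 2447 and 2207 in WT TAMs and 5996, 3838 and 2629 in C5aR-/- TAMs, and 10 of the 12 differences were above 0, with a median of 0.45. The 2 below 0 were those of Ctse and Ctsf. Lgmn was the only 1 of the 12 with no overlap between the genotypes (higher, beside 8.84% of all tested genes). Both Lgmn and Ctss were higher at an unadjusted p below 0.05 from limma (6.06% of all tested genes).

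Lgmn encodes legumain, an endopeptidase that cleaves after asparagine and processes cathepsin precursors and antigens (chr12:102394084-102439813, minus strand). Its TPM was 248, 184 and 143 in WT TAMs and 646, 391 and 355 in C5aR-/- TAMs. Every C5aR-/- library lay above every WT library, and the mean was 192 ± 53.0 in WT and 464 ± 158 in C5aR-/- TAMs (SD, n = 3), a ratio of 2.42. The log2 difference was 1.26 (SE 0.29, higher in 3 of 3 C5aR-/- libraries, limma adjusted p = 0.157). It lay between 0.99 and 1.46 when single libraries were left out, and the adjusted p from limma was from 0.0896 to 0.991 over 13 alternatives of the processing. Lgmn was the 1 member called at the unadjusted threshold.

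Ctss encodes cathepsin S, which degrades the invariant chain of MHC class II in antigen-presenting cells (chr3:95526786-95556403, plus strand). Its TPM was 611, 341 and 427 in WT TAMs and 1050.1, 834 and 589.8 in C5aR-/- TAMs. The genotypes overlapped through WT TAM 1, which was above C5aR-/- TAM 3. C5aR-/- minus WT gave a log2 difference of 0.84 (SE 0.29, limma adjusted p = 0.276). Its neighbor Ctsk (chr3:95499256-95509362, plus strand) encodes cathepsin K, the collagenase of osteoclasts. The TPM of Ctsk was 0.44, 1.28 and 1.29 in WT TAMs and 20.7, 3.18 and 0.94 in C5aR-/- TAMs. C5aR-/- TAM 1 stood apart from the other 5 libraries, and C5aR-/- TAM 3 was within the WT range. The log2 difference of Ctsk was 1.52 (SE 0.83, limma adjusted p = 0.454), 0.54 without C5aR-/- TAM 1 and 2.28 without C5aR-/- TAM 3.

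The abundant cathepsins D and B had the same order of libraries. Ctsd, the gene of the main aspartic protease of lysosomes, was at 900.4, 525 and 381 TPM in WT and at 1587, 743 and 393 in C5aR-/- TAMs. Ctsb, the gene of a cysteine protease with endopeptidase and carboxypeptidase activity, was at 645, 416 and 313 TPM in WT and at 999, 596 and 373 in C5aR-/- TAMs. Both were highest in library 1 and lowest in library 3 of each genotype, and the genotypes overlapped. The log2 difference was 0.45 (SE 0.54) for Ctsd and 0.47 (SE 0.41) for Ctsb, close to their standard errors. Without C5aR-/- TAM 1 they were -0.06 and 0.11, and without C5aR-/- TAM 3 they were 0.94 and 0.82.

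Ctsz encodes cathepsin Z, a carboxypeptidase, and Ctsc encodes the dipeptidyl peptidase that activates granule proteases of leukocytes. The TPM of Ctsz was 256, 197 and 191 in WT TAMs and 372, 282 and 229 in C5aR-/- TAMs. That of Ctsc was 136, 82.6 and 72.7 in WT TAMs and 186, 127 and 97.6 in C5aR-/- TAMs. For both genes every C5aR-/- library was above WT TAM 2 and WT TAM 3. The overlap came from WT TAM 1, which was above C5aR-/- TAM 3 for Ctsz and above C5aR-/- TAM 2 and 3 for Ctsc. Their log2 differences were 0.44 (SE 0.22) and 0.49 (SE 0.31), and the limma adjusted p was 0.408 for Ctsz and 0.521 for Ctsc. Without C5aR-/- TAM 1 the differences were 0.26 and 0.25, and the largest with a library left out were 0.60 for Ctsz (without C5aR-/- TAM 3) and 0.76 for Ctsc (without WT TAM 1).

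Ctsa, Ctsh and Ctsl differed less between the genotypes. Ctsa encodes a carboxypeptidase that also protects beta-galactosidase and neuraminidase, and its TPM was 270.2, 205 and 186 in WT TAMs and 402, 261 and 164 in C5aR-/- TAMs. Ctsh, the gene of an aminopeptidase, had 244, 174 and 180.4 against 292, 209 and 147. Ctsl, the gene of the endopeptidase cathepsin L, had 333, 277 and 286 against 409, 356 and 260.2. For all 3 genes C5aR-/- TAM 1 was the highest and C5aR-/- TAM 3 the lowest of the 6 libraries, and the log2 differences were 0.25, 0.08 and 0.17. That of Ctsl was 0.03 without C5aR-/- TAM 1 and 0.36 without C5aR-/- TAM 3.

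The log2 differences of Ctse and Ctsf were below 0. Ctse encodes cathepsin E, an aspartic protease of endosomes, and its TPM was 7.51, 11.8 and 2.25 in WT TAMs and 2.55, 2.66 and 2.43 in C5aR-/- TAMs. The C5aR-/- libraries were close to each other, while WT TAM 3 was below all of them and the other WT libraries were above. Its log2 difference was -0.995 (SE 0.49, limma adjusted p = 0.407). It was -0.57 without WT TAM 2 and -1.56 without WT TAM 3, where the genotypes separated and limma called it at the unadjusted threshold. Ctsf, the gene of another cysteine protease, was at 27.4, 31.0 and 24.5 against 30.9, 33.8 and 16.3, with a log2 difference of -0.09 that was 0.23 without C5aR-/- TAM 3.

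The 7 hydrolases of lipids and glycans had a summed TPM of 406, 320.2 and 332 in WT TAMs and 539, 423 and 316 in C5aR-/- TAMs. The differences of 6 were above 0, with a median of 0.19, and that of Gaa was below 0. Lipa was the only 1 with no overlap between the genotypes (higher, beside 8.84% of all tested genes).

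Lipa encodes lysosomal acid lipase, which hydrolyzes cholesteryl esters and triglycerides taken up with lipoproteins (chr19:34492318-34527474, minus strand). Its TPM was 39.0, 29.2 and 24.7 in WT TAMs and 97.7, 54.6 and 42.1 in C5aR-/- TAMs. All C5aR-/- libraries were above all WT libraries, although the gap between C5aR-/- TAM 3 and WT TAM 1 was small. The mean was 30.9 ± 7.31 in WT and 64.8 ± 29.2 in C5aR-/- TAMs (SD, n = 3). The log2 difference was 0.98 (SE 0.33, higher in 3 of 3 C5aR-/- libraries, limma adjusted p = 0.266), and it was 0.64 without C5aR-/- TAM 1. Over 13 alternatives the limma adjusted p was from 0.148 to 0.991.

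Hexa encodes the alpha subunit of beta-hexosaminidase, which degrades gangliosides, and was the most abundant of the 7. Its TPM was 177, 128 and 127 in WT TAMs and 217, 185 and 129 in C5aR-/- TAMs. Gla, the gene of alpha-galactosidase A, was at 11.4, 11.5 and 9.22 TPM in WT and at 21.3, 15.5 and 8.50 in C5aR-/- TAMs. In both genes C5aR-/- TAM 1 and 2 were above all WT libraries and C5aR-/- TAM 3 was near the lowest WT library. Log2 differences were 0.28 (SE 0.23) for Hexa and 0.38 (SE 0.32) for Gla, against 0.12 and 0.10 without C5aR-/- TAM 1 and 0.49 and 0.72 without C5aR-/- TAM 3.

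Glb1, Neu1 and Gusb encode beta-galactosidase, neuraminidase 1 and beta-glucuronidase. The TPM of Glb1 was 40.3, 34.2 and 38.5 in WT TAMs and 43.4, 39.8 and 31.4 in C5aR-/- TAMs. Neu1 had 24.8, 17.1 and 20.7 against 33.4, 23.8 and 11.8. For both genes C5aR-/- TAM 1 was above and C5aR-/- TAM 3 below all WT libraries, with log2 differences of 0.01 and 0.04. Gusb was at 60.4, 43.6 and 43.3 in WT TAMs and was even among the C5aR-/- TAMs, with 57.0, 53.6 and 56.1. Gaa, the gene of the acid alpha-glucosidase that degrades glycogen, had 52.2, 56.4 and 68.4 in WT TAMs and 68.9, 49.8 and 36.3 in C5aR-/- TAMs. It was the only member of this kind whose highest WT value was in WT TAM 3, and its log2 difference was -0.23 (SE 0.25), or -0.45 without C5aR-/- TAM 1 and near 0 without C5aR-/- TAM 3.

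Psap and Grn encode precursors that lysosomal proteases cleave into small cofactors. Psap gives rise to the saposins, which present sphingolipids to hydrolases, and its TPM was 969, 773 and 653 in WT TAMs and 2235, 1031 and 653 in C5aR-/- TAMs. Grn encodes progranulin, the precursor of the granulins, and had 325, 184 and 166 against 464, 236 and 174. In both genes C5aR-/- TAM 1 was the highest of the 6 libraries and C5aR-/- TAM 3 was close to WT TAM 3, so the genotypes overlapped. The log2 difference was 0.54 (SE 0.44) for Psap and 0.31 (SE 0.41) for Grn, and without C5aR-/- TAM 1 it was 0.06 for Psap and -0.08 for Grn. Without C5aR-/- TAM 3 it was 0.95 and 0.62.

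Among the 5 genes of membrane proteins, Cd63 and Mcoln1 were higher with no overlap (8.84% of all tested genes) and Lamp1, Lamp2 and Scarb2 overlapped. Cd63 encodes a tetraspanin of late endosomes, lysosomes and secreted vesicles (chr10:128900989-128912822, plus strand). Its TPM was 309.8, 299 and 307 in WT TAMs and 537, 481 and 489.9 in C5aR-/- TAMs. The libraries of a genotype were close to each other, with a mean of 305 ± 5.56 in WT and 503 ± 30.4 in C5aR-/- TAMs (SD, n = 3), and the genotypes did not overlap. The log2 difference was 0.72 (SE 0.12, higher in 3 of 3 C5aR-/- libraries, limma adjusted p = 0.0922), and this was the smallest adjusted p among the members. Left-out libraries moved it between 0.67 and 0.75, and without C5aR-/- TAM 1 the limma adjusted p was 0.0490 with a fold change that stayed under 2. Over 13 alternatives the adjusted p from limma was from 0.0490 to 0.991.

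Mcoln1 encodes the lysosomal cation channel mucolipin 1, which releases calcium (chr8:3500457-3515232, plus strand). Its TPM was 36.9, 34.4 and 36.1 in WT TAMs and 51.3, 43.4 and 45.2 in C5aR-/- TAMs. As for Cd63, the spread within a genotype was small and the genotypes did not overlap, with a mean of 35.8 ± 1.29 in WT and 46.6 ± 4.14 in C5aR-/- TAMs (SD, n = 3). For Mcoln1 the log2 difference was 0.37 (SE 0.13, higher in 3 of 3 C5aR-/- libraries, limma adjusted p = 0.276, from 0.226 to 0.999 over 13 alternatives).

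Lamp1 and Lamp2 encode the major glycoproteins of the lysosomal membrane, and Scarb2 encodes LIMP-2, which carries glucocerebrosidase to the lysosome. The TPM of Lamp1 was 401, 281 and 248 in WT TAMs and 610.3, 366 and 218 in C5aR-/- TAMs, highest in library 1 and lowest in library 3 of each genotype. Lamp2 had 221, 190.3 and 159.6 against 201, 224 and 126. Scarb2 had 79.2, 67.1 and 76.7 against 96.5, 67.5 and 41.4. For all 3 genes C5aR-/- TAM 3 was the lowest of the 6 libraries, and the log2 differences were 0.27 (SE 0.38), -0.08 (SE 0.25) and -0.20 (SE 0.29).

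**Figure D2:**
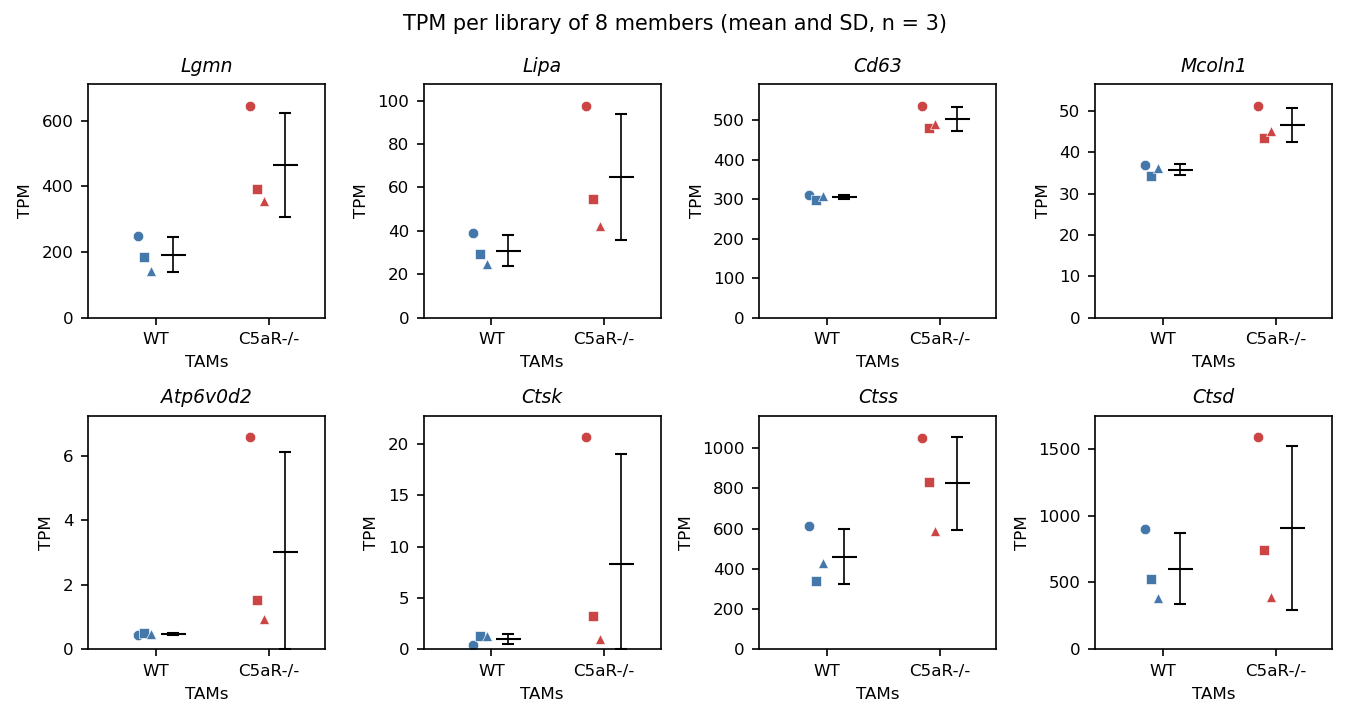
TPM of 8 members per library, with circle, square and triangle for library 1, 2 and 3 of a genotype and with the mean and SD of each genotype (n = 3, bars stop at 0). Lgmn, Lipa, Cd63, Mcoln1 and Atp6v0d2 had no overlap between WT and C5aR-/- TAMs, whereas Ctsk, Ctss and Ctsd overlapped.

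The V-ATPase consists of a soluble sector that hydrolyzes ATP and a membrane sector through which protons pass. Atp6v1a and Atp6v1b2 encode catalytic-sector subunits A and B, Atp6v1c1 and Atp6v1h the stalk and regulatory subunits C and H, and Atp6v0d1 and Atp6v0d2 alternative forms of subunit d of the membrane sector. Atp6ap1 encodes an accessory subunit needed for assembly. The 7 genes summed to 522, 487 and 431 TPM in WT TAMs and to 589.7, 504 and 404 in C5aR-/- TAMs. The genotypes overlapped, and the spread of the 6 tested genes was smaller than that of the proteases, with a median ratio of the highest to the lowest library of 1.25 in WT and 1.53 in C5aR-/- TAMs, against 1.76 and 1.95 for the cathepsins and legumain. Over all tested genes this median ratio was 1.36 in WT and 1.56 in C5aR-/- TAMs, near that of the V-ATPase genes in C5aR-/- TAMs.

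The 6 tested V-ATPase genes had log2 differences from -0.14 to 0.21 with a median of -0.01, 3 above 0 and 3 below 0, and limma adjusted p values of at least 0.609. Atp6ap1, the most abundant, was at 136, 127 and 106 TPM in WT and at 159.7, 148 and 119 in C5aR-/- TAMs. Atp6v1b2 had 101, 90.7 and 71.5 against 104, 79.8 and 59.3. Both were lowest in library 3 of each genotype, and their log2 differences were 0.21 (SE 0.16) and -0.14 (SE 0.23). Atp6v1c1 and Atp6v1h were close between the genotypes, at means of 78.7 ± 6.41 and 71.9 ± 2.88 in WT against 81.4 ± 6.74 and 69.1 ± 10.4 in C5aR-/- TAMs (SD, n = 3). Atp6v0d1 was at 79.0, 64.3 and 65.0 TPM in WT and at 90.6, 79.2 and 52.8 in C5aR-/- TAMs. Atp6v1a had 52.9, 53.1 and 40.9 against 63.4, 50.03 and 31.1, and C5aR-/- TAM 3 was again the lowest library for both.

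Atp6v0d2, the form of subunit d known from osteoclasts and some macrophages (chr4:19876841-19922605, minus strand), was the member that did not pass the filter. Its TPM was 0.45, 0.49 and 0.47 in WT TAMs and 6.59, 1.53 and 0.94 in C5aR-/- TAMs. The 3 WT libraries were below a TPM of 1 and close to each other, and every C5aR-/- library was higher, with C5aR-/- TAM 1 farthest away. The order of the C5aR-/- libraries was that of Ctsk. Tested without a filter, Atp6v0d2 had a log2 difference of 1.18 (SE 0.53, higher in 3 of 3 C5aR-/- libraries, limma adjusted p = 0.537), and the depth behind these levels is unknown.

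Tfeb and Tfe3 differed less between the genotypes than Mitf. Tfeb was at 24.1, 23.6 and 29.2 TPM in WT and at 26.6, 23.9 and 23.0 in C5aR-/- TAMs. Tfe3 had 36.4, 34.2 and 37.6 against 47.9, 39.3 and 19.5. The values of Tfeb were even, whereas those of Tfe3 ran from above to below the WT range in C5aR-/- TAMs, and the log2 differences were -0.06 (SE 0.15) and -0.11 (SE 0.32). Mitf was scarce, at 3.85, 2.26 and 1.6 TPM in WT and 6.48, 4.17 and 2.40 in C5aR-/- TAMs. It was highest in library 1 and lowest in library 3 of each genotype, with a log2 difference of 0.56 (SE 0.37, limma adjusted p = 0.542), 0.28 without C5aR-/- TAM 1 and 0.85 without C5aR-/- TAM 3. Activity of these factors is set largely by their movement into the nucleus, which RNA levels do not show.

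The members were then set against the macrophage markers of the same library. For this the mean log2(TPM + 1) of 11 macrophage markers (the list without Cd68, itself a lysosomal protein) was subtracted from the log2 values of all genes, a comparison chosen after the data were seen. The marker mean was 7.54, 6.36 and 5.88 in WT TAMs and 7.76, 6.96 and 6.18 in C5aR-/- TAMs. This mean is made of 11 of the 12 markers, so some of their differences against it must lie above 0 and others below. Of the 12 macrophage markers set against this mean, 2, Mertk and Cd68, were higher with no overlap and 3, Adgre1, Itgam and Lyz2, were lower. The relative values therefore depend on the markers chosen. On this scale the median difference was -0.17 over the 35 members and -0.42 over all tested genes, and 12 members had a difference above 0 and 23 below 0. The subtraction lowers the difference of every gene by the same amount, so these signs are set by the scale. The C5aR-/- libraries lay above all WT libraries for 2 members, Lgmn and Lipa (0.393% of all tested genes), and below them for 0 (3.31%). At an unadjusted p below 0.05, limma called 0 members higher (0.277% of all tested genes) and 0 lower (2.27%), and at the adjusted threshold it called 0 members, against 26 genes of the whole table.

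Relative to the marker mean, the log2 level of Lgmn was 0.42, 1.17 and 1.28 in WT TAMs and 1.57, 1.65 and 2.29 in C5aR-/- TAMs. That of Lipa was -2.22, -1.45 and -1.20 in WT TAMs and -1.14, -1.16 and -0.75 in C5aR-/- TAMs. Every C5aR-/- library stayed above every WT library for both genes, by a small step for Lipa. The difference of Lgmn was 0.88 (SE 0.77) and that of Lipa 0.60 (SE 0.79). In this fit the SE was nearly the same for all members, from 0.77 (Lamp2) to 0.89 (Ctsk). SE and p-values relative to the marker mean, also those of C5ar1, therefore do not give the spread of a single gene between libraries. Cd63, at 0.74, 1.87 and 2.38 in WT TAMs and 1.31, 1.95 and 2.76 in C5aR-/- TAMs, overlapped on this scale. Mcoln1 also overlapped, with a difference of -0.01, a sign set by the subtraction that lowered all differences alike. Ctsd had 2.28, 2.68 and 2.69 against 2.87, 2.58 and 2.44, and the genotypes overlapped with a difference of 0.08.

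**Figure D3:**
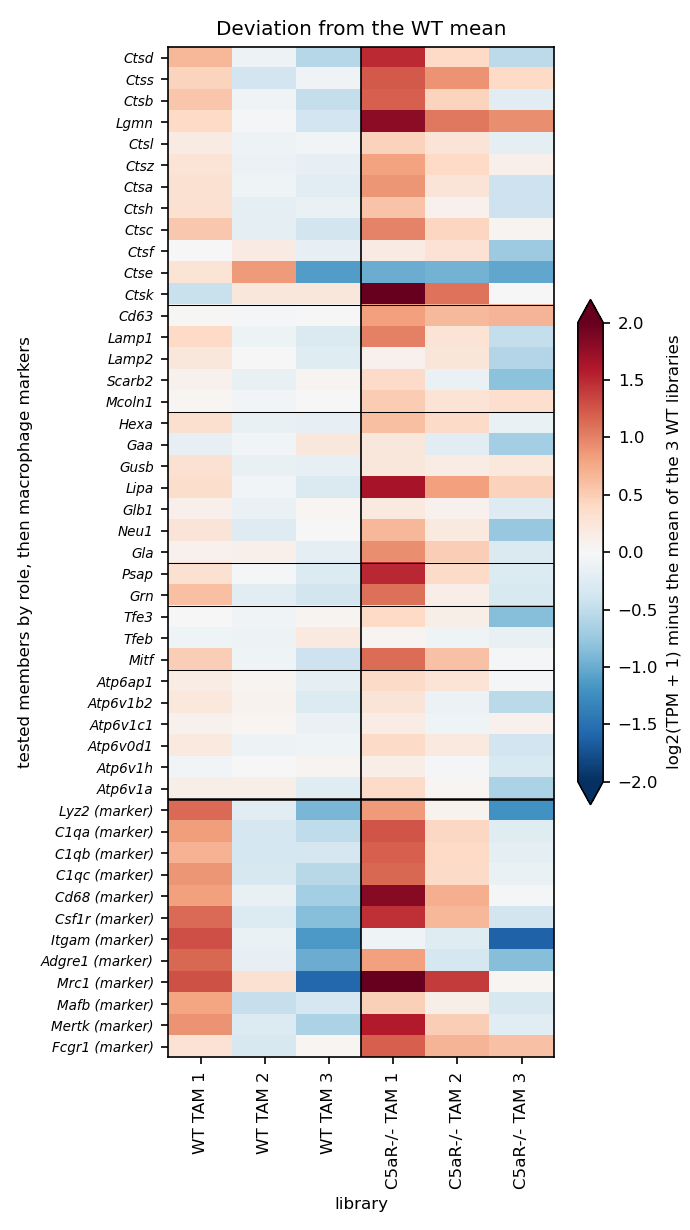
Log2(TPM + 1) of the 35 tested members (by role, upper part) and the 12 macrophage markers (lower part) minus the mean of the 3 WT libraries, 1 column per library. The color scale ends at -2 and 2, and Ctsk and the marker Mrc1 were beyond it in C5aR-/- TAM 1.

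The promoters of the members were searched for the core of the element that TFEB, TFE3 and MITF bind. Windows from 250 bases before to 50 bases after the annotated start of transcription, from RefSeq on build GRCm38.p6, were given for 29 of the 36 members. The entries not given are those of Ctsb, Ctse, Ctsh, Atp6v0d2, Atp6v1b2, Atp6v1c1 and Atp6v1h. The letters searched were CACGTG and the longer TCACGTGA, which contains it. Both read the same on either strand. CACGTG was present in a window of 12 of the 29 members (41.4%), against 8.09% of all 27025 genes with a window and 11.4% of the 10356 tested genes with one. TCACGTGA was present in 6 of the 29 (20.7%), against 1.12% and 2.12%. A match is a description of the sequence and does not show that a factor binds there.

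The 12 members with CACGTG were Ctsa, Ctsd, Ctsf, Ctsl, Lgmn, Glb1, Gaa, Gla, Lamp1, Mcoln1, Atp6v0d1 and Atp6v1a. Their log2 differences ran from -0.23 for Gaa to 1.26 for Lgmn, so members with the same letters differed in how their levels compared between the genotypes. Lipa and Cd63, separated by genotype, had windows without these letters. The stretches with the letters are shown for the separated genes Lgmn and Mcoln1, for Lamp1, which had 4 copies, and for the members with TCACGTGA, so that the spacing of the copies can be compared. They are written 5′ to 3′ on the strand of the gene, with the letters searched in capitals. Lgmn is at chr12:102439123-102439154 (minus strand), Mcoln1 at chr8:3500435-3500492 (plus strand), Lamp1 at chr8:13159087-13159160 (plus strand) and Ctsa at chr2:164833748-164833784 (plus strand). Ctsd is at chr7:142387907-142388077 (minus strand), Atp6v0d1 at chr8:105566061-105566080 (minus strand), Atp6v1a at chr16:44139372-44139403 (minus strand) and Gla at chrX:134601181-134601245 (minus strand). The RefSeq starts used for the windows differ from some gene bounds of GENCODE, which gave the other positions here. By those bounds the stretches of Lgmn, Ctsa and Atp6v1a lie inside the gene, and the last copy in Ctsa lies after the RefSeq start.
Lgmn: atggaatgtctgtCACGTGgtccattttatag
Mcoln1: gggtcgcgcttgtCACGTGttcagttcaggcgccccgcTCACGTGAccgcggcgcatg
Lamp1: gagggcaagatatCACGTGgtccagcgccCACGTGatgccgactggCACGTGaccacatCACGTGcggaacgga
Ctsa: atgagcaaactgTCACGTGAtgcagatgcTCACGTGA
Ctsd: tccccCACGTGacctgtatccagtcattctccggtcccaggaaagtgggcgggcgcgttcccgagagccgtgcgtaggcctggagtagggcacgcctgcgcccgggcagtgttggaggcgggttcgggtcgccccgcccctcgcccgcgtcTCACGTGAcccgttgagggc
Atp6v0d1: gccctactgcggTCACGTGA
Atp6v1a: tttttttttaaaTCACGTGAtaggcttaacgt
Gla: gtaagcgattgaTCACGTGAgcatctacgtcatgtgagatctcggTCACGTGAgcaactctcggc

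The other lysosomal genes were taken from lists of the same compartment, and genes named below other than those called at the unadjusted threshold were picked after their values were seen. Of 40 other hydrolases, all tested, limma called 0 at the adjusted threshold, and at the unadjusted threshold it called 2 higher, Acp5 and Dnase2a, and 0 lower. Over all tested genes, 2.13% were called higher and 2.84% lower at the unadjusted threshold, also for comparison with the next lists. The median difference was 0.14, and 6 of the 40 were higher and 6 lower with no overlap, which for this and the next lists is to be read beside 8.84% and 12.5% of all tested genes. Acp5 encodes tartrate-resistant acid phosphatase, an enzyme of osteoclasts and activated macrophages, and was at 18.2, 20.3 and 22.9 TPM in WT and at 125, 67.5 and 61.8 in C5aR-/- TAMs. All C5aR-/- libraries were far above the WT libraries, with a log2 difference of 1.94 (SE 0.28, higher in 3 of 3 C5aR-/- libraries, limma adjusted p = 0.0668). Like Lgmn and Lipa, it was highest in C5aR-/- TAM 1.

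Dnase2a, the gene of the acid nuclease that degrades DNA of engulfed cells, was at 38.7, 39.8 and 36.1 TPM in WT and at 54.0, 105 and 169 in C5aR-/- TAMs. It differed from Lgmn, Lipa and most other members in that C5aR-/- TAM 1 was the lowest of the C5aR-/- libraries, and its difference was 1.35 (SE 0.38, higher in 3 of 3 C5aR-/- libraries, limma adjusted p = 0.211). Vps35, a gene of the retromer that recycles sorting receptors, lies near it on chromosome 8 and had 111, 106 and 84.9 against 83.2, 309 and 309. Between both genes (chr8:84908560-85299802) lie 14 other tested genes. Of these, 12 were above all WT libraries in both C5aR-/- TAM 2 and C5aR-/- TAM 3, as were 18.7% of all tested genes. In C5aR-/- TAM 1, 3 of them were above all WT libraries, as were 29.7% of all tested genes. The members on chromosome 8, Lamp1, Mcoln1, Atp6v0d1 and Atp6v1b2, lie outside this stretch.

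Of 28 further genes of membrane proteins, transporters and cofactors, 27 were tested, with a median difference of 0.15 and 0 called by limma at the adjusted threshold. Tpcn1, the gene of a cation channel of endosomes and lysosomes, was the 1 gene called at the unadjusted threshold, at 32.6, 29.6 and 28.8 TPM in WT and 48.4, 81.4 and 79.3 TPM in C5aR-/- TAMs (log2 difference 1.14, SE 0.22, higher in 3 of 3 C5aR-/- libraries, limma adjusted p = 0.113). Slc17a5 and Cln3 were also higher with no overlap, and Laptm4a and Npc1 were lower. The 13 tested of 18 other V-ATPase genes had a median of 0.04 with 0 genes without overlap, near that of the 6 tested members of the pump. Of the 15 genes of sorting and enzyme maturation (median -0.06), Igf2r and Cln6 were higher and M6pr was lower with no overlap, Igf2r and M6pr both encoding receptors of mannose 6-phosphate on hydrolases.

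Of the 10 genes of cystatins and serpins, 5 were tested, with a median of -0.37. Cst3, the gene of cystatin C, was the most abundant, at 876, 819 and 754 in WT TAMs and 859.5, 891 and 680.5 in C5aR-/- TAMs, and Cstb was higher with no overlap. Of the genes below the filter, Stfa1 and Stfa3 were lower with no overlap, Stfa3 at 2.69, 2.09 and 0.57 in WT TAMs and at 0 in C5aR-/- TAMs. Of the 17 regulators of TFEB and mTORC1, 15 were tested, with a median of 0.01, Rragc and Fnip1 higher and Lamtor2 lower with no overlap. In these last 4 lists limma called 0 genes at the adjusted threshold and 0 at the unadjusted threshold.

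Markers of other cells also differed between the genotypes, and their part in the levels of the lysosomal genes was not tested. In all of these lists limma called 0 genes at the adjusted threshold. Relative to the macrophage marker mean it called 4 mast cell and 2 neutrophil markers, all lower, against 26 of all 14776 tested genes. The p-values of that fit do not give the spread of a single gene between libraries. Marker genes named below that are neither the most abundant nor at 0 were picked after their values were seen. Mast cell markers (8 genes, 7 tested) had no overlap for all 8, and at the unadjusted threshold limma called 6 lower and 1 higher. The 1 higher was Kit, the most abundant, and the list summed to 172, 169.8 and 201 TPM in WT TAMs and to 68.5, 80.6 and 90.1 in C5aR-/- TAMs. Tpsab1 was at 0 in the C5aR-/- libraries. Neutrophil markers (7 of 7 tested, 4 lower at that threshold, most abundant S100a9) summed to 961, 2335 and 631 in WT TAMs and to 217, 397 and 31.8 in C5aR-/- TAMs, although Ly6G+ cells were removed in the sort.

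Epithelial and ID8 markers were present in all libraries despite the gate on CD45, with a sum over 9 genes of 2050.1, 1991 and 2187 in WT TAMs and 2250.1, 2199 and 1679.6 in C5aR-/- TAMs. Krt19 was the most abundant, and 1 of the 7 tested genes, Muc16, was lower at the unadjusted threshold, while Krt8, at 465, 455 and 460.2 against 757.5, 624 and 743, was higher with no overlap. Pax8, below the filter, was lower with no overlap, at 0.27, 0.23 and 0.12 against 0.08, 0 and 0.10. Mesothelial markers (6 of 6 tested, most abundant Wt1) summed to 974, 1093 and 1259 against 988, 978 and 733, and Upk3b and Lrrn4 were lower at that threshold. Msln of the same list was higher with no overlap, at 145, 135 and 179.6 against 268, 284 and 288. Fibroblast markers (5 of 6 tested, most abundant Dcn) summed to 404, 467 and 605 against 557, 439 and 473, and Col1a2 was lower. Col1a1 went the other way with a log2 difference of 1.91 and overlapped, at 3.52, 7.13 and 10.8 against 1.21, 43.3 and 235.85. It was the 1 tested gene of this list with a difference above 0, and 4 were below 0. The gate on CD45 excludes these cells, and how their RNA entered the libraries was not tested.

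Endothelial markers (3 of 5 tested, most abundant Pecam1, Cldn5 at 0) summed to 12.7, 18.4 and 13.5 in WT TAMs and to 27.5, 16.5 and 10.1 in C5aR-/- TAMs. Dendritic cell markers (5 of 6 tested, most abundant Ccr7) summed to 51.4, 48.9 and 41.8 against 88.5, 68.4 and 31.0. T and NK cell markers (6 of 7 tested, most abundant Cd3g) summed to 20.0, 49.7 and 87.2 against 48.8, 41.0 and 19.1. B cell markers (5 of 5 tested, most abundant Ighm) summed to 496, 388 and 84.3 against 443, 163 and 32.8. All of these overlapped, and limma called 0 genes of the 4 lists at the unadjusted threshold. Markers of osteoclasts and multinucleated giant cells, the cells best known for Ctsk, Atp6v0d2 and Acp5, summed to 42.1, 56.0 and 40.8 in WT TAMs and to 168.5, 92.3 and 72.9 in C5aR-/- TAMs. Acp5 made up most of the sum in C5aR-/- TAMs, Calcr was at 0 in all libraries, and only 3 of the 7 genes were tested, with a median difference of -0.03. Acp5 was the 1 called above, and the other 2, Nfatc1 and Mmp9, overlapped with differences of -0.03 and -0.61. Dcstamp and Ocstamp, below the filter, were higher with no overlap, at 0, 0 and 0.06 against 0.11, 2.47 and 0.47 and at 0.02, 0.17 and 0.16 against 0.27, 0.23 and 1.41.

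Reads of overlapping genes may be shared between them. By the annotation, 15 of the 36 members overlap another gene, and whether the strand was used when expression was estimated is not given in the sources used here. The 5 members with no overlap between WT and C5aR-/- TAMs, Lgmn, Lipa, Cd63, Mcoln1 and Atp6v0d2, share no bases with another annotated gene.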

How the data were processed

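The authors deposited gene expression as TPM, 3 libraries per genotype, together with their mean of each group. The submitters' processing notes name fastp, HISAT2, StringTie, RSEM and DESeq2 and the build mm10, without versions, and which tool gave the TPM is not stated. The authors used edgeR and DESeq2 for their calls, which need counts and were not run here. Gene IDs were paired with symbols and positions in GENCODE M21 (GRCm38, the build also called mm10), 52073 of 56980 with a symbol. Of the genes, 28003 were at 0 in all libraries and were not tested. The deposited group means equal the means of the libraries and were not used otherwise. Where several IDs shared a symbol, the most abundant 1 carried the symbol, and the others stayed in the data under their gene IDs. The library kit keeps the strand (dUTP), but its use in the estimates is not stated.

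TPM was transformed to log2(TPM + 1), and genes that reached 1 TPM in 3 or more libraries were tested with limma 3.58.1 in R 4.3.3 (eBayes with trend, all 6 libraries, no covariate, Benjamini-Hochberg over all 14776 genes). Both thresholds ask for 2-fold or more and for a p below 0.05, adjusted or unadjusted. Tables and figures used Python 3.11.15, pandas 2.3.3, numpy 2.4.6 and matplotlib 3.10.9.

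The members and lists were chosen with earlier results of these data known. Named genes were all members, genes of the other lysosomal lists at the unadjusted threshold, and of each marker list the most abundant gene and defining markers at 0. Other genes named were picked after their values were seen. The lists were other hydrolases, other V-ATPase subunits, membrane proteins with transporters and cofactors, sorting and maturation, cystatins and serpins, regulators of TFEB and mTORC1, and markers of 11 cell types. Tried besides were median-of-ratios scaling, quantile normalization, a filter at 5 TPM or none, 0.1 as the pseudocount, a replicate block, and the data without each library. The values relative to the macrophage marker mean were chosen after seeing the data.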

Additional observations from a re-analysis of the deposited data

How the results depend on the processing

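The members limma called at the adjusted threshold were 0 in every alternative, while of the whole table it called 349 genes without C5aR-/- TAM 1, 1 without C5aR-/- TAM 2, 3 without C5aR-/- TAM 3 and 26 relative to the macrophage marker mean. Called at the unadjusted threshold were 2 with quantile normalization (5.12% of all tested genes), 2 with median-of-ratios scaling (5.001%), 0 relative to the macrophage marker mean (2.55%), and from 0 (8.44%, without C5aR-/- TAM 1) to 4 (4.29%, without C5aR-/- TAM 3) with single libraries left out. Members without overlap were 2 relative to the marker mean (3.70% of all tested genes) and from 4 (28.3% without C5aR-/- TAM 2, 24.6% without WT TAM 2) to 15 (30.8%, without C5aR-/- TAM 3) with libraries left out, with 5 without C5aR-/- TAM 1 (42.1%), where separated groups stay apart by construction, and the median difference was -0.17 and from -0.06 to 0.39. C5ar1 was at -5.42 (limma adjusted p = 7.04e-06, lower in 3 of 3 libraries) relative to the marker mean, at -7.24 (limma adjusted p = 0.0548, lower in 3 of 3 libraries) with a pseudocount of 0.1 and from -5.16 (limma adjusted p = 0.0220, without C5aR-/- TAM 1, lower in 2 of 2 libraries) to -4.96 with C5aR-/- libraries left out, and below the filter without a WT library. With the replicate block C5ar1 was at -5.04 (limma adjusted p = 0.105, lower in 3 of 3 libraries) and 8 members had an unadjusted p below 0.05 and were higher (6.55% of all tested genes) against 5 (6.06%). Deviations from the genotype mean correlated at 0.19, -0.01 and 0.27 between libraries with the same number. Of the 6 libraries, 4 correlated best with the library of the same number in the other genotype. The labels name no pairs, and the numbers were not read as pairs. Relative to the marker mean 13 members fell below 0: Ctsa -0.13, Ctsh -0.30, Ctsl -0.20, Lamp1 -0.11, Hexa -0.0948, Glb1 -0.37, Gusb -0.18, Neu1 -0.34, Grn -0.0629, Mcoln1 -0.00597, Atp6v0d1 -0.31, Atp6v1c1 -0.33 and Atp6ap1 -0.17. These signs follow from the subtraction, which lowered the difference of every gene by the same amount. With libraries left out 17 changed sign: Ctsa from -0.0716 to 0.57, Ctsd from -0.0629 to 0.94, Ctsf from -0.28 to 0.23, Ctsh from -0.17 to 0.33, Lamp1 from -0.10 to 0.64, Lamp2 from -0.25 to 0.17, Glb1 from -0.0858 to 0.14, Neu1 from -0.28 to 0.43, Grn from -0.0849 to 0.62, Scarb2 from -0.48 to 0.12, Tfeb from -0.12 to 0.0332, Tfe3 from -0.36 to 0.26, Atp6v0d1 from -0.0942 to 0.29, Atp6v1a from -0.29 to 0.21, Atp6v1b2 from -0.33 to 0.0682, Atp6v1c1 from -0.0187 to 0.11 and Atp6v1h from -0.16 to 0.0544. The cause of the sign changes with libraries left out was not tested. TPM holds no counts, 3 libraries per genotype leave wide intervals, and cell content cannot be told apart from expression per cell.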
